A study of Drosophila melanogaster with 11 samples.

Results

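A set of 10 core autophagy genes of *Drosophila melanogaster* was followed in nascent RNA from Kc167 (Kc) cells, a hemocyte-derived embryonic cell line. The 10 genes, *Atg1*, *Atg13*, *Atg17*, *Atg101*, *Atg2*, *Atg9*, *Atg18a*, *Atg5*, *Atg8a* and *Atg8b*, were chosen by name, as core autophagy genes described as targets of the promoter-binding protein M1BP together with Hox factors. All 10 had a row in the count table, which holds 17771 genes. Cells received 20 µg of double-stranded RNA against *M1BP*, 12 µg against *Cp190* and 5 µg against *mod(mdg4)*, to deplete its isoform Mod(mdg4)67.2, and mock cells received none. At 5 days all cells were given 0.2 mM of the uridine analog EU for 1 h, and the labeled RNA was captured and sequenced. The libraries used were 2 of *M1BP* knockdown (replicates 2 and 3), 1 labelled *Cp190* knockdown, 2 of *mod(mdg4)* knockdown (replicates 1 and 2) and 4 of mock. The study's reporting summary calls its RNA-seq replicates biological, but no source says whether the replicates were separate cultures, so the p-values measure the spread between these libraries, which may be technical.

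Autophagy encloses cytoplasm in a double membrane, the autophagosome, and delivers it to the lysosome for breakdown. A kinase complex built around Atg1 starts the process, Atg9 and the Atg2-Atg18 pair supply membrane and lipid, and a ubiquitin-like conjugation system attaches Atg8 to the growing membrane. In flies autophagy is best known from the larval fat body, where it follows starvation and the steroid signal of metamorphosis and is held back by Hox proteins. M1BP binds Motif 1, a core promoter element of many broadly transcribed genes, while CP190 and Mod(mdg4)67.2 are components of the *gypsy* chromatin insulator.

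Library totals were 11312004 to 13181160 counts in *M1BP* knockdown, 9476448 counts for the library labelled *Cp190* knockdown, 7462623 to 11808443 counts in *mod(mdg4)* knockdown and 24944604 to 29680851 counts in mock. *M1BP* itself had 21.5 and 31.8 CPM (the share of a library's gene counts on the customary scale, with library sizes adjusted by the TMM method) in *M1BP* knockdown, against 44.2, 45.2, 54.5 and 54.0 CPM in mock, a log2 fold change of -0.86 ± 0.20 (SE) with an adjusted p of 0.0145 by edgeR's quasi-likelihood test (0.0934 against mock 1 and 2 alone). *Cp190* went against its label: in the library labelled *Cp190* knockdown it had 4374 CPM, above the 339 to 460 CPM of mock. *mod(mdg4)* itself is not analysed here. Of 12 hemocyte markers, 8 reached 1 CPM in every *M1BP* knockdown, *mod(mdg4)* knockdown and mock library, while *gcm*, which marks the embryonic hemocyte lineage, had 1 count in 1 mock library and none elsewhere. The summed hemocyte markers had 4993 to 5413 CPM in *M1BP* knockdown, 4277 CPM for the library labelled *Cp190* knockdown, 4143 to 5979 CPM in *mod(mdg4)* knockdown and 5438 to 7479 CPM in mock, and their part in the results was not tested. Single markers moved in both directions: the largest, *srp*, averaged 2622 ± 444 CPM in *M1BP* knockdown (SD, n = 2) and 4345 ± 1042 CPM in mock (SD, n = 4), whereas *Hml*, *Pxn* and *Ppn* averaged 444, 767 and 138 CPM in *M1BP* knockdown and 269, 257 and 58.7 CPM in mock. The 3 fat body markers summed to at most 2.93 CPM in any library. In mock, the crystal cell, muscle and germ line lists summed to at most 1.28, 4.40 and 1.28 CPM. The 3 neuron markers, however, summed to 411 to 523 CPM in mock, and the 2 lamellocyte markers to 859 to 941 CPM. The lamellocyte sum came from *msn* alone, as *atilla* was at 0 in every mock library. The neuron sum came mostly from *brp* (mean 364 CPM in mock) and *elav* (mean 106 CPM), with little from *nSyb*.

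Of the 10 genes, 3 had no count at all in any of the 9 libraries: *Atg5*, *Atg101* and *Atg8b*. Atg5 is joined to Atg12 to form the enzyme complex that attaches Atg8 to membrane, and Atg101 is the partner that stabilizes Atg13 in the initiation complex. *Atg5* (X:7314622-7323770, minus strand, dm6) lies wholly within *CG1677* and *lncRNA:CR44357*, which run along the same strand. *Atg101* (X:18791668-18793517, plus strand) lies wholly within *S6KL* on the same strand. *S6KL* itself had 500 to 3679 counts per library, whereas *CG1677*, also wholly within the span of *lncRNA:CR44357*, had none. All 1679 genes of the table whose span was fully covered by other genes of the same strand were at 0 in every library (100%), against 1822 of 14877 genes with no such overlap (12.2%). Counts were taken over whole gene spans, and by default featureCounts gives a read that falls in overlapping genes of one strand to neither. For *Atg5* and *Atg101* the 0 therefore says nothing about transcription.

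**Figure D1:**
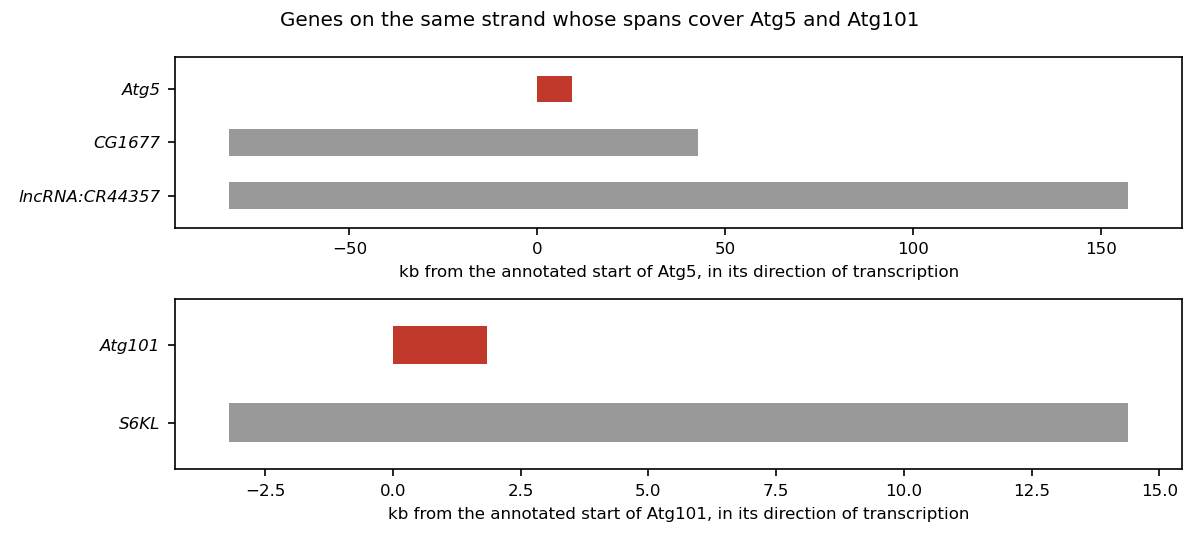
Spans of *Atg5* (upper panel) and *Atg101* (lower panel) in red and of the genes on the same strand that cover them in grey, in kb from the annotated start of each autophagy gene. *Atg5* lies wholly within *CG1677* and *lncRNA:CR44357*, and *Atg101* wholly within *S6KL*.

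*Atg8b*, a paralog of *Atg8a* known from the male germ line, was at 0 without any such overlap (3R:17724410-17725063, minus strand). A level of up to 3 counts per library cannot be told from 0, and 3 counts were between 0.101 and 0.402 CPM of the unscaled totals of the 9 libraries. These limits cover counting error only. *Atg8b* was thus not detectable at this depth in any condition. The other 7 genes had between 305 and 19758 counts per library, shared no span with a gene on their own strand, and passed the filter on low counts in every comparison.

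Because the targeted factor binds Motif 1, matches to that motif near the starts of *Atg1*, *Atg8a* and *Atg3* are shown first. They are in lower case with the last 10 bases, the core of the motif, in capitals. They come from a shortened copy of a supplementary list of matches in windows around gene starts, of which the first 1999 entries were read, so a gene without an entry here may still have one in the whole list, and no share of genes is given.
*Atg1*: cctgcGGCCACACTG
*Atg8a*: cctacGGTCACACTG
*Atg3*: gcttcGGTCACACTA
The match of *Atg1* lay on the strand of the gene, 11 to 26 bases downstream of its start at 3L:12805116, and differed from the Motif 1 consensus at 3 of 15 positions. The match of *Atg8a* lay on the opposite strand, at positions -197 to -182 from its start at X:10768338, and differed at 1 position. It falls beside the start of the divergently transcribed *BTBD9*, 199 bases from that of *Atg8a*, and on the strand of *BTBD9*. The match thus lay closer to the start of *BTBD9* than to that of *Atg8a*, and to which gene it belongs was not tested. *Atg3* encodes the enzyme that passes Atg8 to its lipid. The match in its window lay on the opposite strand at positions -336 to -321 from the start at 3L:18748687, with 2 differences. Whether another gene starts beside that match was not examined. Offsets are known to within 1 base. The entries read also held matches for *Vps15* and *Uvrag*, each with 3 differences, whose sequences are not shown. The genes named here are not the full set of pathway genes with a match among those entries. Of the named genes, edgeR called *Atg3* and *Uvrag* lower after *M1BP* knockdown, but not *Atg1*, *Atg8a* or *Vps15*. Whether matches go with calls was not tested. Matches are letters in a window and were not tested as binding sites.

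In mock cells the 7 detected genes spanned a wide range of levels. *Atg8a*, whose product coats the autophagosome and is the protein most often used to mark it, was the highest with 179 CPM per kb of gene span, in the 98.3th percentile of 10868 genes. The kinase complex partners *Atg13* and *Atg17* followed with 49.6 and 46.3 CPM per kb, and their 4 mock values overlapped. *Atg2* and *Atg18a* had 22.9 and 22.1 CPM per kb, again with overlapping values. *Atg9* had 13.8 CPM per kb. The kinase gene *Atg1* was the lowest of the 7 with 8.28 CPM per kb, in the 57.5th percentile. Apart from those pairs, the mock ranges of neighbors in this order did not overlap. Gene spans include introns, and the exonic share of the span was 20.1% for *Atg1* and 100% for *Atg13* and *Atg9*, so per-kb levels mix intron and exon reads in different proportions.

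**Figure D2:**
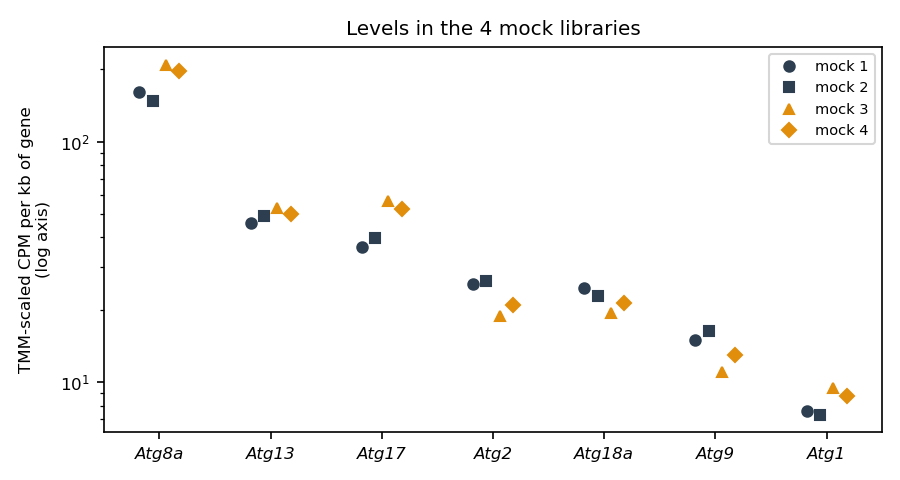
Levels of the 7 detected autophagy genes in the 4 mock libraries, as TMM-scaled CPM per kb of gene span on a log axis, with 1 symbol per library and mock 1 and 2 in dark blue, mock 3 and 4 in orange. The order runs from *Atg8a* (mean 179) to *Atg1* (mean 8.28), and only the ranges of *Atg13* and *Atg17* and those of *Atg2* and *Atg18a* overlap between neighbors.

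The mock libraries themselves fell into pairs, 1 with 2 and 3 with 4. For all 7 genes the values of mock 1 and 2 did not overlap those of mock 3 and 4, as for 66.7% of all 9511 genes tested in the *M1BP* comparison. *Atg1*, *Atg13*, *Atg17* and *Atg8a* were lower in mock 1 and 2, with log2 ratios to mock 3 and 4 between -0.51 (*Atg17*) and -0.13 (*Atg13*), and *Atg2*, *Atg9* and *Atg18a* were higher, with log2 ratios of 0.39, 0.39 and 0.23. The labels do not say which mock libraries were prepared with which knockdown, so all 4 entered each comparison with mock, which the knockdowns share.

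The first question was whether loss of M1BP changes nascent transcription of the autophagy genes. None of the 7 tested genes passed an adjusted p of 0.05 in edgeR's quasi-likelihood test, in a comparison where 16.5% of 9511 genes were called higher and 11.5% lower. At an unadjusted p under 0.05 there was 1, *Atg2*, beside 3869 of all 9511 genes, and DESeq2 also called none of the 7. The median log2 fold change was -0.002 over the 7 genes and -0.03 over all genes tested. In these bulk libraries, fewer cells transcribing a gene and less transcript per cell cannot be told apart.

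The initiation complex showed no call. Atg1 is the serine/threonine kinase at its center. *Atg1* (3L:12784429-12805116, minus strand) had 163 and 208 CPM in *M1BP* knockdown, 202 CPM for the library labelled *Cp190* knockdown, 197 and 124 CPM in *mod(mdg4)* knockdown, and 156, 151, 195 and 182 CPM in mock. The 2 replicates of the *M1BP* and of the *mod(mdg4)* knockdown lay on both sides of the mock mean. The log2 fold change for *M1BP* knockdown over mock was 0.14 ± 0.16 (SE, 95% interval -0.22 to 0.50, edgeR adjusted p = 0.535). *CG42709* lies inside *Atg1* on the other strand, and counts were taken by strand.

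*Atg13* (3R:8349815-8352817, plus strand), a regulatory partner that binds Atg1, had 212 and 142 CPM in *M1BP* knockdown, 168 CPM for the library labelled *Cp190* knockdown, 157 and 129 CPM in *mod(mdg4)* knockdown, and 138, 147, 159.9 and 151 CPM in mock. *M1BP* knockdown 2 stood above every other library and *M1BP* knockdown 3 within the mock range. For *M1BP* knockdown over mock the log2 fold change was 0.28 ± 0.16 (95% interval -0.09 to 0.65, edgeR adjusted p = 0.239). This value rests on 1 library: it was 0.51 with an adjusted p of 0.0291 without *M1BP* knockdown 3 and -0.06 without *M1BP* knockdown 2.

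*Atg17* (3R:5669713-5679930, plus strand), the fly counterpart of the scaffold FIP200, had 511 and 426 CPM in *M1BP* knockdown, 344 CPM for the library labelled *Cp190* knockdown, 475 and 319 CPM in *mod(mdg4)* knockdown, and 373, 408, 578 and 535 CPM in mock. The *M1BP* knockdown values fell between the mock pairs. The log2 fold change for *M1BP* knockdown over mock was 0.01 ± 0.20 (95% interval -0.43 to 0.46, edgeR adjusted p = 0.970).

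**Figure D3:**
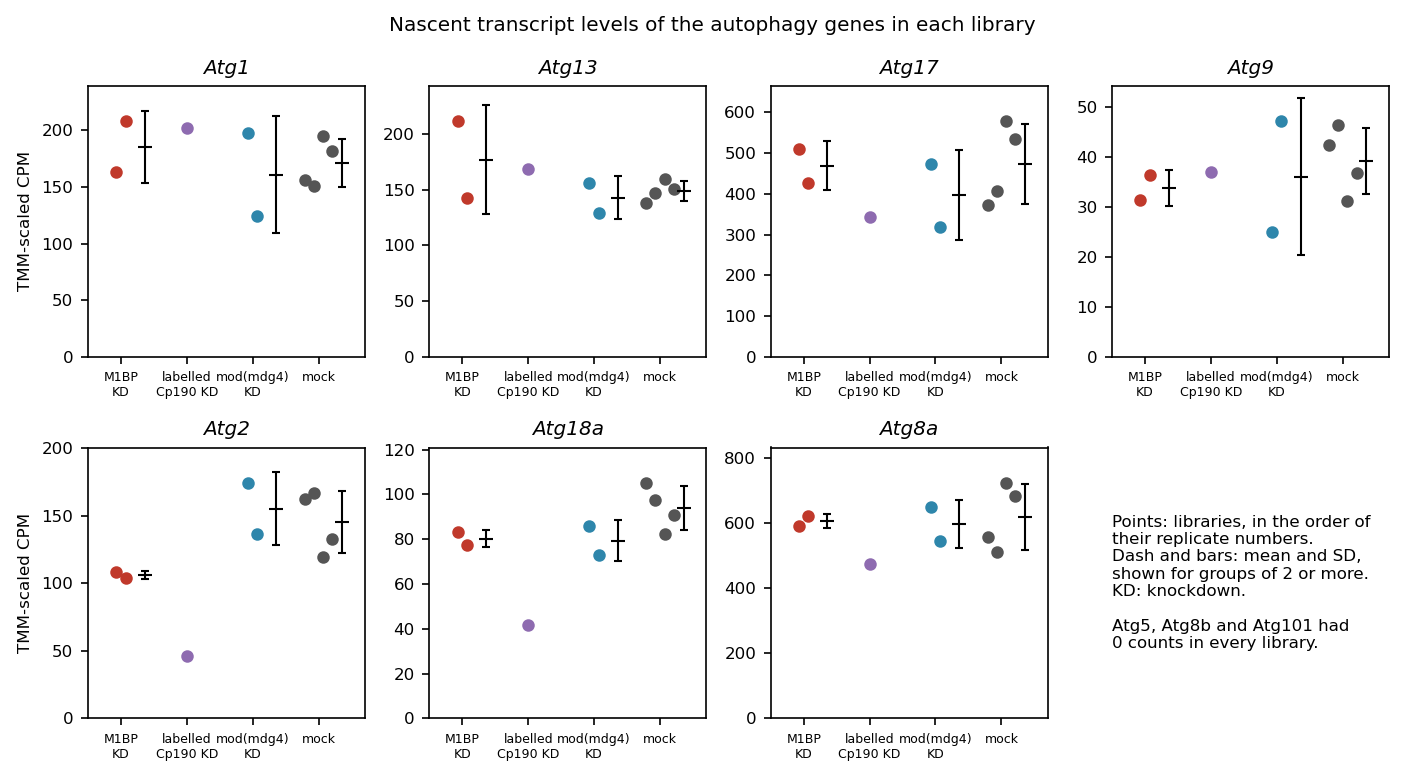
TMM-scaled CPM of the 7 detected autophagy genes in each library, on linear axes from 0, with *M1BP* knockdown, the library labelled *Cp190* knockdown, *mod(mdg4)* knockdown and mock from left to right; points are libraries and dashes with bars are means with SD. *Atg2* had 108 and 104 CPM in *M1BP* knockdown, below all 4 mock libraries (119 to 167 CPM), and 46.4 CPM for the library labelled *Cp190* knockdown.

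Of the genes that supply membrane, *Atg2* came nearest to a call. Atg2 moves lipid from the endoplasmic reticulum into the growing membrane. *Atg2* (3L:2774338-2780677, plus strand) had 108 and 104 CPM in *M1BP* knockdown, 46.4 CPM for the library labelled *Cp190* knockdown, 175 and 136 CPM in *mod(mdg4)* knockdown, and 162, 167, 119 and 133 CPM in mock. Both *M1BP* knockdown libraries lay below all 4 mock libraries, as they did for 25.8% of all genes tested, and *Atg2* was the only one of the 7 for which the groups did not overlap; the opposite separation was seen for 23.3% of all genes and none of the 7. The log2 fold change was -0.42 ± 0.16 (95% interval -0.80 to -0.05) with an unadjusted p of 0.0300 and an adjusted p of 0.0850 by edgeR, which misses the threshold. The value depended on the mock libraries: it was -0.59 with an adjusted p of 0.0391 against mock 1 and 2 alone, -0.23 with an adjusted p of 0.306 against mock 3 and 4 alone, and -0.51 with an adjusted p of 0.0449 without mock 3.

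*Atg9* (2R:16294400-16297232, plus strand) encodes the membrane-spanning protein of the vesicles that seed the autophagosome. It had 31.4 and 36.5 CPM in *M1BP* knockdown, 37.0 CPM for the library labelled *Cp190* knockdown, 25.1 and 47.2 CPM in *mod(mdg4)* knockdown, and 42.5, 46.4, 31.2 and 36.8 CPM in mock. Its values overlapped between all groups, and the *mod(mdg4)* knockdown replicates held both its lowest and its highest value. *M1BP* knockdown differed from mock by a log2 fold change of -0.18 ± 0.19 (95% interval -0.62 to 0.25, edgeR adjusted p = 0.513).

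*Atg18a* (3L:8186857-8191118, plus strand) encodes a protein that binds phosphatidylinositol 3-phosphate and partners Atg2. It had 83.1 and 77.5 CPM in *M1BP* knockdown, 41.9 CPM for the library labelled *Cp190* knockdown, 85.8 and 72.8 CPM in *mod(mdg4)* knockdown, and 105, 97.5, 82.4 and 90.9 CPM in mock. In both the *M1BP* and the *mod(mdg4)* knockdown 1 library lay below the mock range and the other just inside its lower end. The log2 fold change for *M1BP* knockdown over mock was -0.20 ± 0.14 (95% interval -0.52 to 0.12, edgeR adjusted p = 0.327).

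*Atg8a* (X:10764878-10768338, minus strand) had 591 and 622 CPM in *M1BP* knockdown, 475 CPM for the library labelled *Cp190* knockdown, 651 and 547 CPM in *mod(mdg4)* knockdown, and 557, 511, 725 and 683 CPM in mock. Both replicates of the *M1BP* and of the *mod(mdg4)* knockdown fell within the mock range. In *M1BP* knockdown over mock the log2 fold change was -0.002 ± 0.17, the closest to 0 of the 7 genes (95% interval -0.39 to 0.38, edgeR adjusted p = 0.995).

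The comparison of *mod(mdg4)* knockdown with mock gave no call among the 7 genes either. Over all genes 0.320% of 9066 were called higher and 0.408% lower by edgeR, so this test made few calls anywhere. DESeq2 made many more over all genes, as given in the closing section. None of the 7 reached an unadjusted p under 0.05, which 1867 of the 9066 genes did, or was called by DESeq2. Log2 fold changes ran from -0.24 ± 0.22 for *Atg17* (95% interval -0.75 to 0.28) to 0.12 ± 0.17 for *Atg2* (95% interval -0.28 to 0.51), with a median of -0.07 against 0.004 over all genes tested. *Atg1* was -0.07 ± 0.19, *Atg13* -0.04 ± 0.12, *Atg9* -0.09 ± 0.28, *Atg18a* -0.22 ± 0.14 and *Atg8a* -0.03 ± 0.17 on the same scale. The *Atg13* interval, -0.32 to 0.25, was the narrowest and that of *Atg9*, -0.73 to 0.54, the widest. None of the 7 genes had both *mod(mdg4)* knockdown libraries on one side of all mock libraries, where 13.3% of all genes lay above and 17.7% below.

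Set against each other without mock, the *M1BP* and *mod(mdg4)* knockdowns did not differ past the threshold at any of the 7 genes by edgeR, where 4.84% of 8757 genes were called higher and 1.68% lower in *M1BP* knockdown. No gene of the 7 had an unadjusted p under 0.05, which 1852 of the 8757 genes had, and DESeq2 called none of the 7. *Atg2* had the largest difference, -0.51 ± 0.25 (SE, log2, *M1BP* over *mod(mdg4)* knockdown, 95% interval -1.06 to 0.03, edgeR adjusted p = 0.266). Its 108 and 104 CPM in *M1BP* knockdown lay below the 175 and 136 CPM in *mod(mdg4)* knockdown, a separation seen for 28.1% of all genes. *Atg13* was 0.34 ± 0.27, *Atg17* 0.28 ± 0.28 and *Atg1* 0.24 ± 0.28 on the same scale, and the other 3 were between -0.07 (*Atg9*) and 0.05 (*Atg18a*). With 2 libraries a group the intervals were wide, as for *Atg9* (-0.85 to 0.72).

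**Figure D4:**
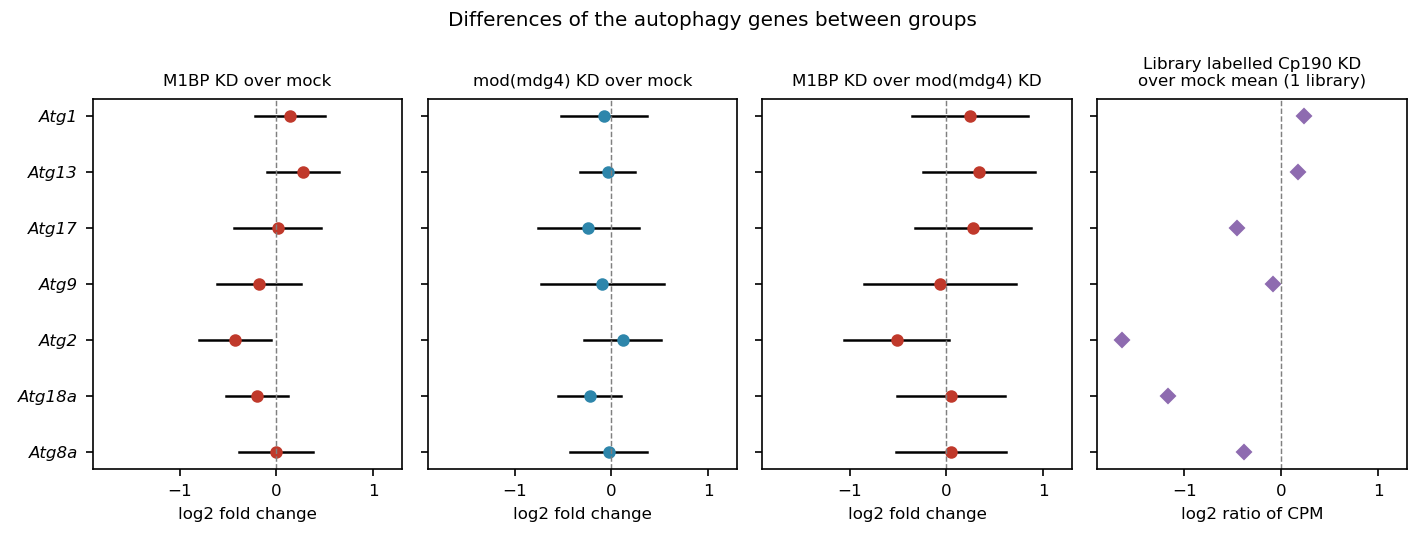
Log2 differences of the 7 detected autophagy genes with 95% intervals (bars) for *M1BP* knockdown over mock, *mod(mdg4)* knockdown over mock and *M1BP* over *mod(mdg4)* knockdown, and log2 CPM ratios without an interval for the single library labelled *Cp190* knockdown over the mock mean. In the first 3 panels no gene passed an adjusted p of 0.05, and only the interval of *Atg2* in the first panel (-0.80 to -0.05) excludes 0; in the last panel *Atg2* (-1.65) and *Atg18a* (-1.17) lie farthest from 0.

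Values for the library labelled *Cp190* knockdown are given without a test, as it is a single library. *Atg2*, *Atg18a*, *Atg17* and *Atg8a* lay below all 4 mock libraries, *Atg1* and *Atg13* above them, and *Atg9* within their range. Over all genes with at least 1 CPM, 42.2% of 9459 lay below and 41.7% above every mock library, so leaving the mock range was common in this library. *Atg2* had 46.4 CPM, against a mock mean of 145 CPM, a log2 ratio of -1.65. *Atg18a* had 41.9 CPM, against a mock mean of 94.0 CPM, a log2 ratio of -1.17. These are the genes of the lipid transfer pair. *Atg17* and *Atg8a* had log2 ratios of -0.46 and -0.38, *Atg1* and *Atg13* of 0.24 and 0.18, and *Atg9* of -0.09. With DESeq2 size factors in place of TMM, 2 genes instead of 4 lay below the mock range.

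The wider pathway was described with 28 further genes, of which 26 were matched to a single row and 25 passed the filter. After *M1BP* knockdown edgeR called 6 of the 25 lower and none higher, beside 11.5% lower and 16.5% higher of all genes. An unadjusted p under 0.05 was reached by 9, all of them lower, and by 3869 of all 9511 genes in either direction. Both *M1BP* knockdown libraries lay below all mock libraries for 12 of the 25 (25.8% of all genes), and the median log2 fold change was -0.25 against -0.03 over all genes. Of the 6, 3 were among the 7 conjugation genes, 1 among 5 genes of the PI3 kinase complex, 1 among 6 genes of cargo receptors and membrane fusion, and 1 among 4 upstream regulators. With the mock pairs used singly 2 were called lower with each pair, and 3 without mock 4.

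The lowest was *Atg12*, the ubiquitin-like protein that is joined to Atg5. It had 1.23 and 1.48 CPM in *M1BP* knockdown, 4.82 CPM for the library labelled *Cp190* knockdown, 6.49 and 7.09 CPM in *mod(mdg4)* knockdown, and 5.47, 5.77, 8.47 and 6.47 CPM in mock. The *M1BP* knockdown libraries were the lowest of all, and the library labelled *Cp190* knockdown also lay below every mock library. Its log2 fold change was -2.24 ± 0.35 (SE, edgeR adjusted p = 0.00257), with 15 and 16 counts in the *M1BP* knockdown libraries and 143 to 231 in mock.

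*Atg3* had 19.5 and 18.5 CPM in *M1BP* knockdown, 9.21 CPM for the library labelled *Cp190* knockdown, 22.0 and 36.6 CPM in *mod(mdg4)* knockdown, and 32.0, 30.3, 37.2 and 31.4 CPM in mock. It was lower in *M1BP* knockdown by a log2 fold change of -0.76 ± 0.17 (edgeR adjusted p = 0.0114). *Atg7* is the activating enzyme at the head of the same conjugation system. *Atg7* had 7.37 and 8.26 CPM in *M1BP* knockdown, 2.51 CPM for the library labelled *Cp190* knockdown, 18.2 and 22.7 CPM in *mod(mdg4)* knockdown, and 14.0, 16.4, 12.2 and 14.4 CPM in mock, with a log2 fold change for *M1BP* knockdown over mock of -0.84 ± 0.21 (edgeR adjusted p = 0.0189). The *Atg3* call was lost against mock 1 and 2 alone (-0.68, adjusted p = 0.0522). The *Atg7* call was lost against mock 1 and 2 alone (-0.92, adjusted p = 0.0562), against mock 3 and 4 alone (-0.75, adjusted p = 0.106), without mock 2 (adjusted p = 0.0560) and without mock 4 (adjusted p = 0.0555).

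*Uvrag*, a partner of the PI3 kinase complex, had 28.4 and 27.8 CPM in *M1BP* knockdown, 26.6 CPM for the library labelled *Cp190* knockdown, 49.5 and 59.1 CPM in *mod(mdg4)* knockdown, and 48.6, 51.4, 40.5 and 46.2 CPM in mock, with a log2 fold change for *M1BP* knockdown over mock of -0.70 ± 0.16 (edgeR adjusted p = 0.0124). The call was lost against mock 3 and 4 alone (-0.60, adjusted p = 0.0639). *Syx17* encodes the SNARE that fuses the autophagosome with the lysosome. *Syx17* had 12.0 and 17.5 CPM in *M1BP* knockdown, 16.8 CPM for the library labelled *Cp190* knockdown, 26.6 and 20.4 CPM in *mod(mdg4)* knockdown, and 25.3, 29.1, 23.2 and 24.6 CPM in mock, with a log2 fold change for *M1BP* knockdown over mock of -0.76 ± 0.21 (edgeR adjusted p = 0.0254). The *Syx17* call was lost against mock 1 and 2 alone (-0.84, adjusted p = 0.0753), against mock 3 and 4 alone (-0.68, adjusted p = 0.114), without *M1BP* knockdown 2 (-0.54, adjusted p = 0.0750), and also without mock 1, 2 or 4 (adjusted p = 0.0502, 0.0609 and 0.0577).

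**Figure D5:**
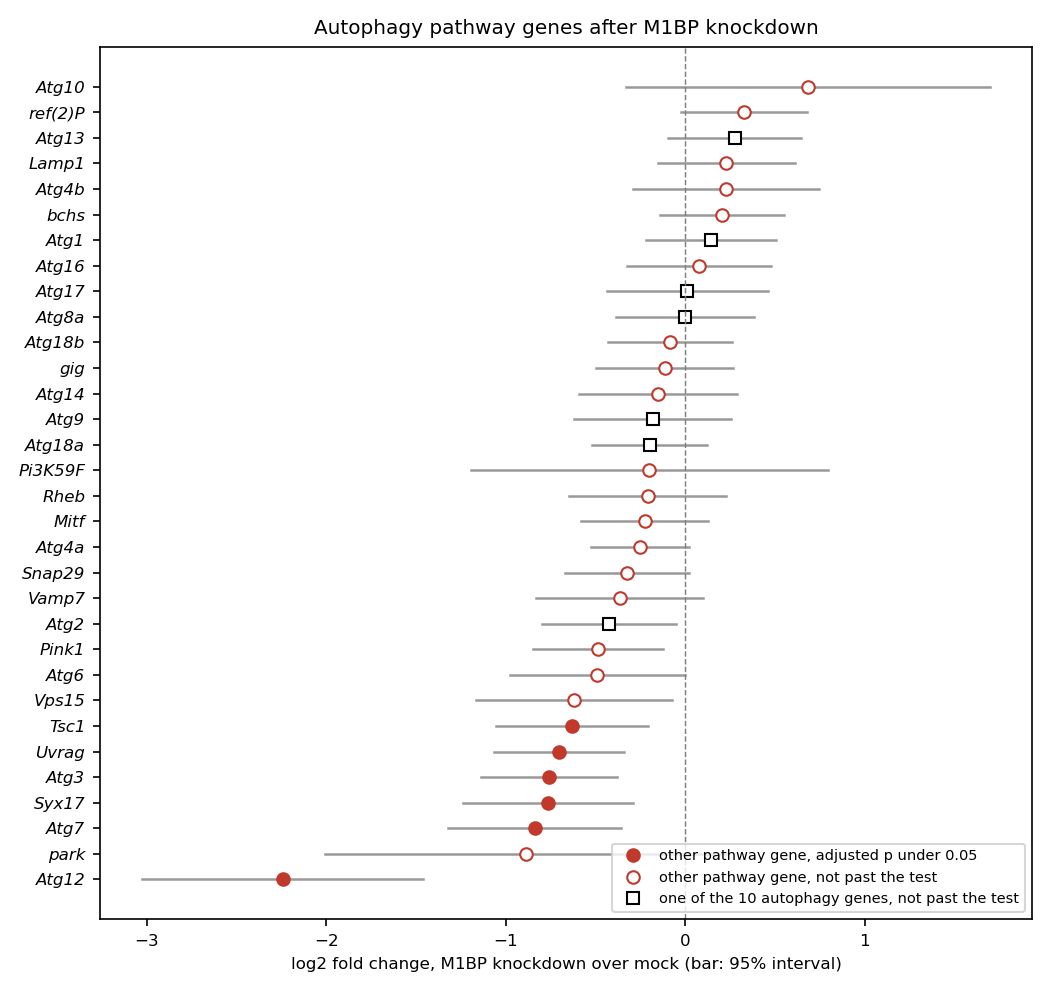
Log2 fold changes for *M1BP* knockdown over mock with 95% intervals for the 7 detected autophagy genes (squares) and 25 other pathway genes (circles), filled where the adjusted p was under 0.05. The 6 filled circles all lie below 0, with *Atg12* lowest at -2.24, and no square is filled.

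In *mod(mdg4)* knockdown none of the 25 pathway genes was called against mock by edgeR or DESeq2. An unadjusted p under 0.05 by edgeR was reached by 1 of them and by 1867 of all 9066 genes. In *M1BP* against *mod(mdg4)* knockdown none was called by edgeR or DESeq2. There 4 of the 25 had an unadjusted p under 0.05 by edgeR, beside 1852 of all 8757 genes. In the library labelled *Cp190* knockdown 16 of the 25 lay below all mock libraries and 3 above, beside 42.2% and 41.7% of all genes compared. *Atg7* and *Atg3* were farthest below, with log2 ratios to the mock mean of -2.50 and -1.83, and *Atg10* farthest above with 1.89. *Atg10*, the enzyme that joins Atg12 to Atg5, shares 49.9% of its span with another gene on its strand, and its counts come from the rest.

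The 7 genes differed in how alike they varied across the 9 libraries. Likeness was measured as the root mean square difference of log2 CPM after each gene was centered on its own mean. *Atg17* and *Atg8a* were the most alike (0.16), and *Atg1* and *Atg2* the least (0.68). The initiation genes *Atg1*, *Atg13* and *Atg17* differed from each other by 0.25 to 0.26, and *Atg2* and *Atg18a* by 0.26. Over all 10867 other genes passing the filter, the nearest to *Atg1* were *lap* (0.082), *fl(2)d* (0.094) and *lqf* (0.095), beside a median of 0.65. The nearest to *Atg8a* were *I-2* (0.061), *Pop2* (0.068) and *Tnpo* (0.070), beside a median of 0.60. Distances to the other detected autophagy genes ran from 0.16 to 0.51 for *Atg8a* and from 0.24 to 0.68 for *Atg1*. The 9 points share libraries, depth and the pairing of the mock libraries, so these distances are descriptions.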

How the data were processed

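The authors used cutadapt 2.7 to trim 50 bp single-end reads (quality 20, shortest length 25) and HISAT2 2.1.0 to align them to dm6, and counted reads by strand over whole FlyBase r6.24 genes with featureCounts 1.6.4. Their deposited values are raw counts per gene without normalization. Their own tests used DESeq2 1.22.1.

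Of 11 labelled libraries 9 were used. The table's 2 columns with one shared header were not used. Counts were tested with edgeR 4.0.16 in R 4.3.3 (quasi-likelihood test, TMM scaling, filterByExpr, adjusted p under 0.05 by Benjamini-Hochberg over all genes), and the test was tried on simulated data. There it recovered 43% of 2-fold changes for *M1BP* knockdown against mock and 42.4% for *mod(mdg4)* knockdown against mock. Between the knockdowns it recovered 11.4%. An absent call alone therefore does not exclude a change of that size, and the intervals say more. For the detected autophagy genes they reached from -0.80 (*Atg2*) to 0.65 (*Atg13*) in *M1BP* knockdown over mock, on the log2 scale. In *mod(mdg4)* knockdown over mock they reached from -0.75 (*Atg17*) to 0.54 (*Atg9*). Both ranges fall short of a 2-fold change in either direction. Between the knockdowns the interval of *Atg2* reached -1.06, which includes such a change. Intervals use the test's degrees of freedom. DESeq2 1.42.0, other scalings, filters, mock subsets, a replicate block and leaving out each library were the alternatives. All members were named; of the wider pathway, the 5 called genes of smallest adjusted p per direction; and the 3 genes most like *Atg1* and *Atg8a*. Members, lists and tests were chosen with earlier results of these data known. The search of promoter windows for motifs was not run, because no promoter sequence was used here; Motif 1 matches are sequences from a supplementary list. The 3 listed symbols *Vmp1*, *Tor* and *nos* could not be matched to a single row and were left out (*Tor* is a synonym of more than 1 gene).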

Additional observations from a re-analysis of the deposited data

How the results depend on the processing

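The counts of autophagy genes called stayed at 0 under every alternative for *mod(mdg4)* knockdown against mock and for *M1BP* against *mod(mdg4)* knockdown. For *M1BP* knockdown against mock, 1 was called higher without *M1BP* knockdown 3 (*Atg13*; range over left-out libraries 0 to 1), and 1 lower with mock 1 and 2 only and without mock 3 (*Atg2*; 0 to 1). In the library labelled *Cp190* knockdown, 2 instead of 4 lay below the mock range with DESeq2 size factors. Depth limits *Atg8b* and the low *Atg12*, and 2 libraries a group limit every interval. Where a left-out library leaves 1 in a group, it is assumed to vary like the other group. The search of promoter windows was not run.

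Other pathway genes called lower after *M1BP* knockdown numbered 2 with mock 1 and 2 only, 2 with mock 3 and 4 only, 1 under the replicate block (*Atg12*) and 3 to 8 with a library left out; against *mod(mdg4)* knockdown 1 was lower with at least 10 counts in every library and 3 with all libraries in one model. The cause of these differences was not tested.

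All genes called in *M1BP* knockdown numbered 954 higher with all libraries in one model (1574 in the reported test), 750 higher and 505 lower with mock 1 and 2 only, 796 and 553 with mock 3 and 4 only, and 1085 to 1790 higher and 582 to 1437 lower with a library left out (1097 lower in the reported test). In *mod(mdg4)* knockdown they numbered 369 higher and 549 lower by DESeq2 (29 and 37 reported), 51 higher with library size only, 18 higher with all libraries in one model, 0 and 0 with either mock pair, and 0 to 653 higher and 0 to 634 lower with a library left out. In *M1BP* against *mod(mdg4)* knockdown they numbered 680 higher by DESeq2 (424 and 147 reported), 253 higher and 261 lower with library size only, 313 lower with no filter, 254 lower with at least 10 counts, 929 and 718 with all libraries in one model, and 251 to 521 higher and 82 to 193 lower with a library left out. Library size only moved the median of all genes to -0.13, 0.12 and -0.27 in the comparisons in that order.

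Same-numbered libraries showed no shared deviation (correlations -0.0997 for *M1BP* and -0.0485 for *mod(mdg4)* knockdown). Each correlation rests on a single difference between replicates, so it cannot tell whether same-numbered libraries were prepared together. The replicate block gave 466 genes higher and 100 lower in *M1BP* knockdown and 61 and 80 in *mod(mdg4)* knockdown. Under it the calls were lost for *M1BP* (adjusted p = 0.139), *Atg3* (0.262), *Atg7* (0.381), *Uvrag* (0.322) and *Syx17* (0.294). Log2 fold changes turned sign for *Atg17* (-0.028) and *Atg8a* (0.024) in *M1BP* knockdown, and for *Atg1* (0.052), *Atg13* (0.026), *Atg17* (0.021), *Atg2* (-0.068) and *Atg8a* (0.19) in *mod(mdg4)* knockdown. The knockdowns share a single number, so no block was possible between them.

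Other log2 fold changes that turned sign, none of them past the threshold, were as follows. In *M1BP* knockdown *Atg8a* was 0.021 by DESeq2, 0.021 with DESeq2 size factors, 0.063 with at least 10 counts and 0.22 with mock 1 and 2 only. *Atg17* was -0.074 with library size only, -0.033 with no filter, -0.014 with all libraries in one model and -0.23 with mock 3 and 4 only, where *Atg1* was -0.0045 and *Atg9* 0.015. In *mod(mdg4)* knockdown library size only gave *Atg1* 0.044, *Atg13* 0.082, *Atg9* 0.035 and *Atg8a* 0.10. With mock 1 and 2 only *Atg1* was 0.087, *Atg13* 0.031, *Atg17* 0.045, *Atg2* -0.059 and *Atg8a* 0.19, and with mock 3 and 4 only *Atg9* was 0.12. Between the knockdowns library size only gave *Atg18a* -0.19 and *Atg8a* -0.19.

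With a library left out, *M1BP* knockdown against mock gave -0.071 to 0.28 for *Atg1*, -0.063 to 0.51 for *Atg13*, -0.15 to 0.12 for *Atg17* and -0.099 to 0.085 for *Atg8a*. In *mod(mdg4)* knockdown the ranges were -0.44 to 0.20 for *Atg1*, -0.18 to 0.073 for *Atg13*, -0.55 to 0.0027 for *Atg17*, -0.071 to 0.26 for *Atg2*, -0.65 to 0.29 for *Atg9* and -0.16 to 0.072 for *Atg8a*. Between the knockdowns they were -0.043 to 0.63 for *Atg1*, -0.43 to 0.48 for *Atg9*, -0.051 to 0.19 for *Atg18a* and -0.058 to 0.20 for *Atg8a*.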
